A study of Caenorhabditis elegans with 4 samples.

Results

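The X chromosome of Caenorhabditis elegans carried 593 of the 2713 regions at which the transcription factor CES-1 was found enriched in L3 larvae. These are all regions of the combined list whose chromosome is given as X, with no filter on strength, width or replicate support. They were compared with the 1720 regions of the same list on chromosomes II, III, IV and V. Chromosome I is not part of the comparison. X held 1.31 times as many regions per Mb as II to V together. Its density was 1.14 times that of II, however, and not distinguishable from that of III. Among regions above a score of 10 the ratio was 2.07 in the combined list and 2.48 in replicate 2, but 1.14 in replicate 1, where X had 3 such regions and the interval held 1. A score of 10 kept a smaller share of the replicate lists, so these ratios are not at like cuts. Regions on X were wider than those of II to V, with a median of 239 bp against 212.5 bp. In the combined list, the variance of counts per 1 Mb window relative to their mean was lower along X than along each of the 4 autosomes, whereas in replicate 2 it was lowest along IV.

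CES-1 is a zinc-finger protein of the Snail family, whose members bind E-box sequences and mostly act as repressors. In the worm it is known for its ability to block the programmed death of the sister cells of the NSM neurons, through repression of the cell-death activator egl-1. The X chromosome has its own regulatory setting, since a condensin-based dosage compensation complex lowers transcription along both X chromosomes of hermaphrodites in somatic cells. Genes active in the germ line are scarce on X.

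CES-1 was mapped by chromatin immunoprecipitation and sequencing (ChIP-seq), in which crosslinked chromatin is collected with an antibody and its DNA is sequenced. The groups were 2 CES-1 ChIP libraries, collected with a goat antibody against GFP, and 2 input DNA libraries made from chromatin set aside before the collection. All came from strain OP174 hermaphrodites at the L3 stage, grown at 20 °C. Every worm was unc-119(ed3) mutant and carried the transgene wgIs174, in which ces-1 is joined to TY1, EGFP and FLAG tags beside an unc-119 rescue copy. OP174 is a single transgenic strain made by biolistic transformation, and its labelled genotype lists no ces-1 mutation. Whole animals were used, so a region does not tell which cells held the protein. No library came from worms without the tag, and enrichment unrelated to CES-1 was therefore not measured. The labels do not say whether the replicates were separate cultures, so the spread between them may be technical.

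ChIP replicates 1 and 2 had 873921 and 1320404 uniquely mapped reads, and input replicates 1 and 2 had 1535649 and 907103. These were 11.8% and 11.7% of all reads of the ChIP libraries, against 66.8% and 73.1% of those of the input libraries. The cause of this gap was not tested. Each region carries the authors' q-value from the PeakSeq caller, turned here into a score, −log10(q), which ranks regions within a list. The combined list comes from both ChIP replicates with their reads pooled, and each replicate also has a list of its own. X held 159 of the 592 regions of replicate 1 and 269 of the 1195 regions of replicate 2. A combined region was taken as called in a replicate when it shared at least 1 bp with a region of that list. All positions are WormBase WS220 coordinates. Genes, exons, introns and sequence motifs under the regions were not analysed here. The 593 X regions divide into 152 with a combined score of 2 to 2.5, 110 of 2.5 to 3, 139 of 3 to 4, 93 of 4 to 6, 56 of 6 to 10 and 43 above 10. The 95% intervals below take regions as independent and cover counting error only. No p-value was computed, since regions of 1 list are not replicates of a condition.

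The strongest CES-1 regions on X were called in both libraries, and the 10 strongest all were, while 16.3% of the whole combined list was called in both. X:16929399-16931880 had the highest combined score of the chromosome, 43.3, with 17.2 in replicate 1 and 21.1 in replicate 2. X:14525557-14526142 followed with a combined score of 40.4 and scores of 16.9 and 20.8 in replicates 1 and 2. X:11605504-11606582 had a combined score of 35.6, with 15.7 in replicate 1 and 18.6 in replicate 2. These 3 regions were also the 3 highest of X in each replicate list. The next X region of each replicate list, not the same site in both, scored 9.74 in replicate 1 and 15.6 in replicate 2, so the step below the leading group was larger in replicate 1.

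The X regions in ranks 4 to 10 had combined scores between 19.4 and 25.4. X:11093861-11094315 scored 25.4 in the combined list, 8.52 in replicate 1 and 15.6 in replicate 2. X:14356732-14357308 scored 23.6, with 9.05 in replicate 1 and 13.07 in replicate 2. At both sites replicate 2, the deeper library, gave the higher score. X:8036109-8036790 scored 22.3, with 8.97 in replicate 1 and 13.07 in replicate 2. X:6296322-6296781 scored 20.7, with 9.15 in replicate 1 and 10.03 in replicate 2. The replicates thus differed by less at the second of these sites than at the first. X:16681798-16682273 scored 20.5 and showed the widest contrast of the 10, with 6.42 in replicate 1 and 13.96 in replicate 2. X:11030901-11032214 also scored 20.5, with 4.88 in replicate 1 and 7.68 in replicate 2. This region is 1314 bp long, each replicate called it as more than 1 piece, and the scores are those of the higher piece. X:2996769-2997437 scored 19.4, with 9.74 in replicate 1 and 10.6 in replicate 2. All 10 scored higher in replicate 2 than in replicate 1, and they were 455 to 2482 bp wide.

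A further 33 X regions scored above 10, from 18.6 downwards. All 43 X regions above 10 were called in both replicates, and none was narrower than 331 bp. Such support was near complete on II to V as well, where replicate 1 called 77 and replicate 2 all 79 of the 79 regions above 10. Over the whole list, 5.16% of regions scored above 10. On X the share was 7.25% (43 of 593, 5.43 to 9.63), and on II to V it was 4.59% (79 of 1720, 3.70 to 5.69), a difference of 2.66 percentage points (0.531 to 5.19). Within the replicate 2 list the difference was 2.41 points (0.0392 to 5.78), and within that of replicate 1 it was −0.582 points (−2.95 to 3.11). A score of 10 is not a like cut across the lists. On II to V it kept 2.42% of the replicate 2 regions and 2.47% of those of replicate 1. Scores of 6 or more, reached by 13.5% of the whole list, were found for 99 X regions (16.7%) and for 220 regions of II to V (12.8%), a difference of 3.90 points (0.661 to 7.45). Of the 100 highest-scoring regions of these 5 chromosomes 33 lay on X, and of the highest 25, X held 10, while X held 25.6% of all 2313. The centre of the distribution lay closer. The median combined score was 3.22 on X and 3.08 on II to V, and the maximum was lower on X, 43.3 against 194.

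**Figure D1:**
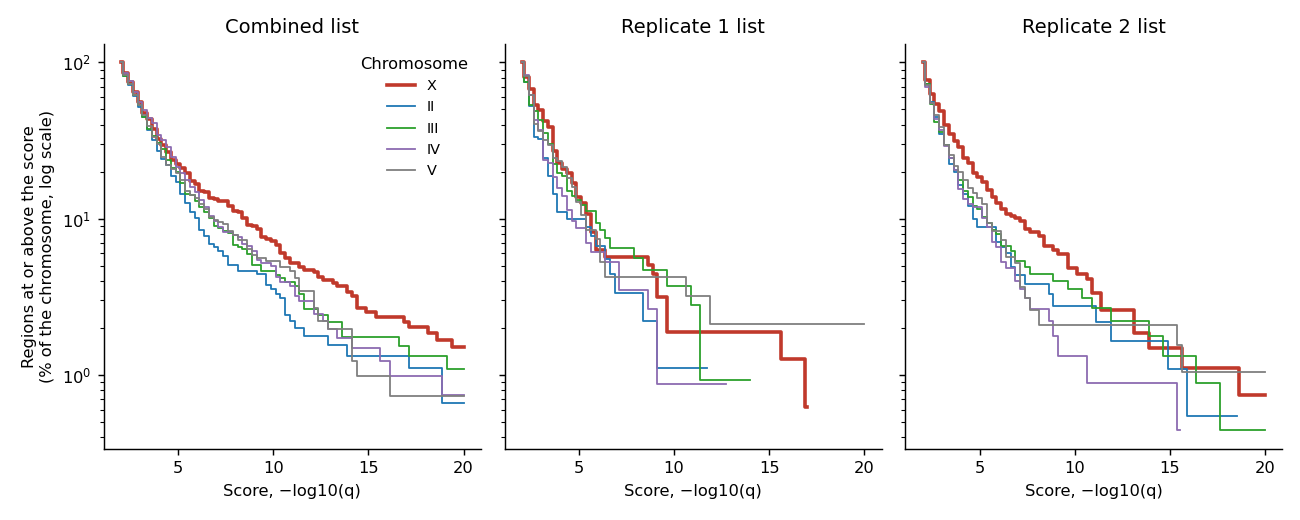
Share of the regions of each chromosome (vertical axis, percent, log scale) that reach a given score, −log10(q) (horizontal axis, cut at 20), for X and for II, III, IV and V in the combined list and in the list of each replicate. In the combined list the X curve runs close to the others at a score of 3 and lies above them at 10, where 7.25% of X regions and 4.59% of those on II to V score higher. In replicate 2 X lies above the others at 3, with 48.7% of its regions there, and at 4 and 6, and in replicate 1 the curves cross from a score of 4 on.

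In the lists of the single replicates X stood apart at lower scores. In replicate 1, 79 of 159 X regions scored 3 or more (49.7%), against 151 of 405 on II to V (37.3%), a difference of 12.4 points (3.35 to 21.3). In replicate 2, 131 of 269 X regions did so (48.7%), against 302 of 825 on II to V (36.6%), a difference of 12.1 points (5.30 to 18.9). In replicate 2 X exceeded each single autosome, by 10.2 points (0.960 to 19.04) over V at the least and 14.1 (4.79 to 22.9) over II at the most. In replicate 1 it exceeded II, IV and V, while the interval against III held 0 (6.69 points, −5.49 to 18.5). In the combined list, which adds weaker regions on every chromosome, 55.8% of X regions and 53.4% of those on II to V scored 3 or more, a difference whose interval held 0 (2.45 points, −2.21 to 7.05). In replicate 1 X had no excess at a score of 6 or more, with 6.29% of its regions there against 7.41% on II to V.

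Density was compared next. The length of a chromosome was taken as the end of its last region in any of the 3 lists, 17.6 Mb on X and 67.2 Mb on II to V together. The combined list held 33.6 regions per Mb on X and 25.6 on II to V, a ratio of 1.31 (1.20 to 1.44). The ratio was 1.25 (1.08 to 1.43) for regions below a score of 3, 1.72 (1.34 to 2.18) for those of 6 or more, and 2.07 (1.40 to 3.05) above 10, where X held 2.44 regions per Mb and II to V 1.18. This last ratio was 2.48 (1.13 to 5.23) in the list of replicate 2, with 13 regions on X and 20 on II to V, and 1.14 (0.202 to 4.44) in that of replicate 1, with 3 on X and 10 on II to V. On X and on II to V, the cut of 10 kept a smaller share of each replicate list than of the combined list. These ratios are therefore not at like cuts. The intervals of the lowest and highest class overlap, and a trend was not tested. Regions called in both replicates were 1.56 times (1.25 to 1.94) as dense on X as on II to V. Chromosome III was the nearest to X over all combined regions, with a ratio of 1.01 (0.895 to 1.15). The ratio of X to III was 1.59 (0.925 to 2.83) above a score of 10, 1.16 (0.900 to 1.49) in replicate 1 and 0.931 (0.777 to 1.12) in replicate 2, so at these counts X was not distinguishable from III. The ratio to II was 1.14 (1.003 to 1.29) in the combined list, 1.53 in replicate 1 and 1.28 in replicate 2. Below a combined score of 3 it was 1.04 (0.866 to 1.25). The ratio to IV was 1.44 in the combined list and 1.37 in replicate 1. In replicate 2 it was 1.17 (0.977 to 1.40), an interval that held 1. The ratio to V was 1.72 (1.52 to 1.96) in the combined list, 2.004 in replicate 1 and 1.66 in replicate 2, the widest contrast in each list.

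**Figure D2:**
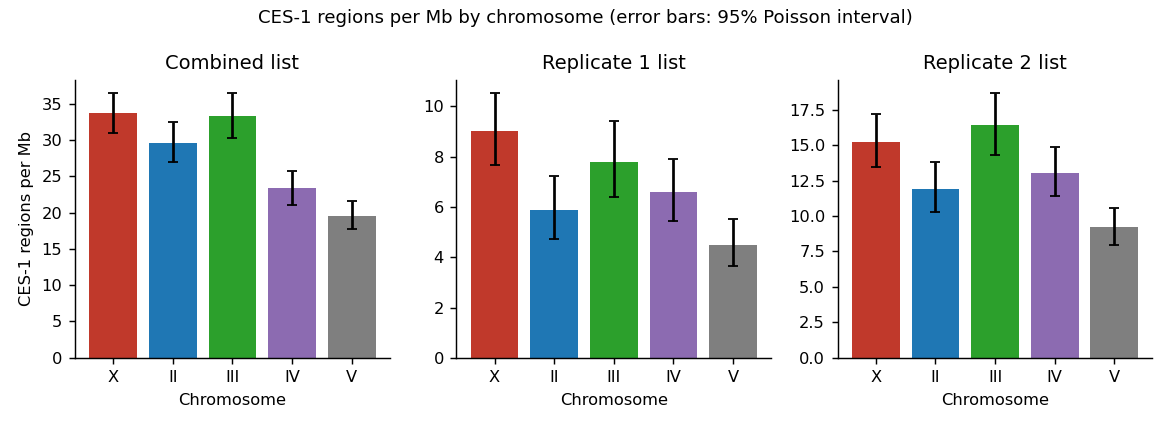
CES-1 regions per Mb (vertical axis, starting at 0) on X and on chromosomes II, III, IV and V, in the combined list and in the list of each replicate. Error bars are exact 95% Poisson intervals; in the combined list X (33.6 per Mb) and III (33.2) stand above II (29.6), IV (23.3) and V (19.5), and the bars of X and III overlap in their error in every list.

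CES-1 regions on X were wider than those on II to V in all 3 lists. The combined X regions had a median width of 239 bp (quartiles 162 and 353), against 212.5 bp (139 and 308) on II to V, a difference of 26.5 bp (10.6 to 42.9). In replicate 1 the medians were 284 bp on X and 251 bp on II to V, 33 bp apart (12.2 to 61.6). In replicate 2 they were 260 bp on X and 218 bp on II to V, 42 bp apart (23.6 to 67.5). The X median was also above that of each single autosome in each list, but the interval of the difference held 0 in 4 of these 12 comparisons. These were IV (20 bp, −2.02 to 38.4) and V (18 bp, −9.78 to 38.5) in the combined list, and III (15 bp, −15.5 to 55.2) and IV (45.5 bp, −0.590 to 75.7) in replicate 1. X regions covered 160586 bp, or 0.911% of the X extent, against 0.618% of the extent of II to V.

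Width moved with score. Across the 593 X regions the Spearman rho between the scores and widths was 0.782, and across the 1720 regions of II to V it was 0.777; both come from the same reads, and regions are not independent. Regions were therefore compared within 6 bands of combined score. Against II to V together, the X median was the larger in 6 of 6 bands, by 7.5 to 37 bp. The interval of the difference lay above 0 in 1 band, scores of 4 to 6, with a median of 330 bp on X and 293 bp on II to V (37 bp, 12.2 to 60.1). Above a score of 10 the medians were 509 bp on X and 488 bp on II to V (21 bp, −76.3 to 116). Some single autosomes had a larger median than X. Above 10 these were II (537.5 bp) and V (585.5 bp). At 2.5 to 3 they were IV (189 bp) and V (185 bp), against 179.5 bp on X. At 3 to 4 it was V (242 bp), against 237 bp on X.

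The widest X regions differed in strength. X:16929399-16931880, also the strongest, spanned 2482 bp, and each replicate called it as a weak left piece and a strong right one. The left piece scored 3.15 over 407 bp in replicate 1 and 2.32 over 376 bp in replicate 2. The right piece scored 17.2 over 1361 bp in replicate 1 and 21.1 over 1506 bp in replicate 2. The replicates therefore placed the stronger enrichment in the same part of the region. Within the 1314 bp of X:11030901-11032214 they did not: the left piece was the weaker in replicate 1 (2.40, against 4.88 on the right) and the stronger in replicate 2 (7.68, against 2.32). The other regions of 1000 bp or more were X:5728888-5730017 (1130 bp, combined score 7.92), X:6743195-6744278 (1084 bp, 4.63) and X:11605504-11606582 (1079 bp, 35.6). The first was called in replicate 1 alone, the second in neither replicate and the third in both. At the other end, 50 X regions (8.43%) and 171 of II to V (9.94%) were narrower than 50 bp. None of the 50 on X scored above 3.52.

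Support by the single replicates was then examined. In the whole combined list 21.4% of regions were called in replicate 1, 42.6% in replicate 2 and 47.7% in at least 1 of them. On X 158 regions were called in replicate 1 (26.6%, 23.2 to 30.3), 262 in replicate 2 (44.2%, 40.2 to 48.2) and 299 in at least 1 (50.4%, 46.4 to 54.4). On II to V the shares were 22.97%, 46.2% and 52.03%. The intervals of all 3 differences held 0, and for at least 1 replicate the difference was −1.61 points (−6.27 to 3.04). X regions called in both replicates numbered 121 (20.4%, against 16.3% of the whole list), and 294 (49.6%, against 52.3%) were called in neither. The X regions called in both had a median score of 8.45 in the combined list and were 407 bp wide at the median, and those called in neither had 2.53 and 172.5 bp. Of the 50 X regions narrower than 50 bp, 3 were called in a replicate, a count made for X only. The combined list contains the reads of each replicate, so this support is not independent of the combined score.

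The class that differed from II to V together was that of regions called in replicate 2 alone. It had 141 on X (23.8%) and 500 on II to V (29.1%), a difference of −5.29 points (−9.21 to −1.14). Over the whole list, 42.6% of regions were called in replicate 2 and 16.3% in both. The gap between these shares is the whole-list share of this class, which lay between those of X and of II to V. The interval lay below 0 against III (−7.36 points, −12.8 to −1.93) and IV (−7.91 points, −13.6 to −2.27). It held 0 against II (−1.44 points, −6.76 to 3.77) and V (−4.65 points, −10.3 to 0.840). The gap to II to V together was of similar size in weak and strong regions. Below a combined score of 4, replicate 2 alone called 85 of 401 on X (21.2%) and 321 of 1197 on II to V (26.8%), a difference of −5.62 points (−10.1 to −0.711). At 4 or more it alone called 56 of 192 on X (29.2%) and 179 of 523 on II to V (34.2%), a difference of −5.06 points (−12.3 to 2.79). Counting all regions called in replicate 2, whether or not replicate 1 called them, the difference was negative below 4 only. Of X regions with a combined score below 4, replicate 2 called 87 of 401 (21.7%), against 328 of 1197 on II to V (27.4%), a difference of −5.71 points (−10.3 to −0.763). For scores of 4 or more the shares were 91.1% of 192 on X and 89.3% of 523 on II to V (1.85 points, −3.56 to 6.24). Replicate 1 called 6.73% of the weak X regions and 6.18% of the weak regions of II to V (0.551 points, −2.01 to 3.69). Within the 6 bands of combined score, the odds of X regions being called, relative to those of II to V (Mantel-Haenszel odds ratio), were 0.742 (0.575 to 0.958) in replicate 2 and 1.10 (0.807 to 1.49) in replicate 1. For being called in at least 1 replicate they were 0.763 (0.586 to 0.992), and the unbanded difference of −1.61 points had an interval that held 0. The replicate 2 value differed among autosomes, from 0.553 (0.396 to 0.771) against IV to 1.05 (0.750 to 1.48) against II, and without IV its interval held 1 (0.816, 0.624 to 1.07). When the overlap had to cover at least 50% of both regions, it was 0.966 (0.757 to 1.23). Whether the odds differ between the replicates was not tested.

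**Figure D3:**
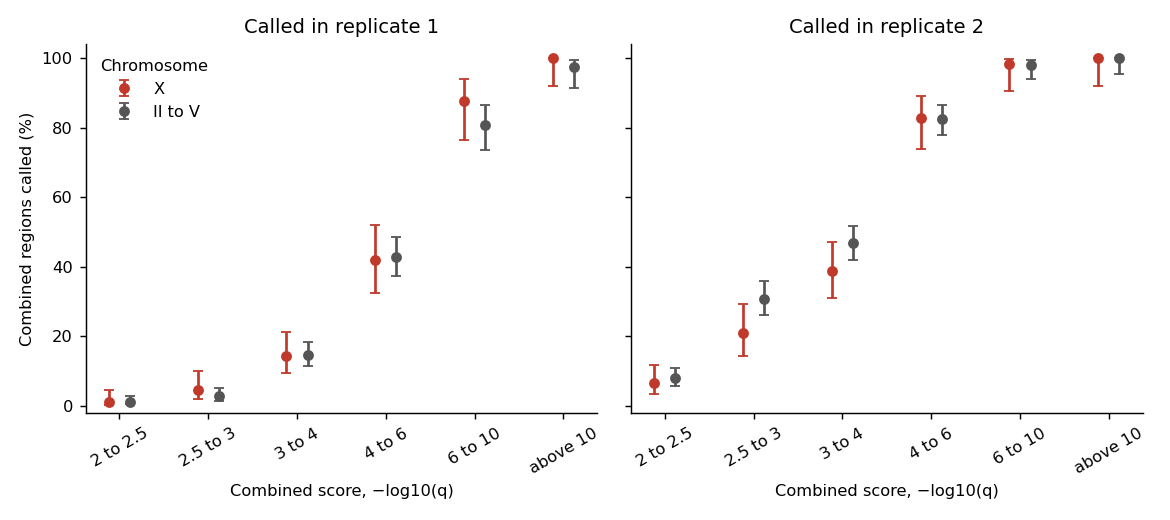
Share of combined regions (vertical axis, percent) called in replicate 1 and in replicate 2, by band of combined score, −log10(q), for X and for II to V; points are shares and error bars 95% Wilson intervals. In replicate 2 the X share is 20.9% at scores of 2.5 to 3 and 38.8% at 3 to 4, against 30.8% and 46.8% on II to V, while at 4 to 6 it is 82.8% on X and 82.5% on II to V.

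Some X regions of fair strength were called in 1 replicate only. The lists hold no coverage, so weaker enrichment at these sites in the other library was not measured. In replicate 1 alone, the strongest was X:5728888-5730017, with a combined score of 7.92 and 4.78 in replicate 1. It was followed by X:15341937-15342438, with 5.52 and 3.07, and X:14695828-14696186, with 5.42 and 3.40. In replicate 2 alone, X:16991386-16991734 had a combined score of 8.55 and 5.90 in replicate 2, X:2455021-2455670 had 8.31 and 3.07, and X:15125152-15125779 had 7.92 and 5.49. None of these 6 reached a combined score of 10. Regions called in neither replicate had combined scores up to 5.99, at X:8997840-8998330, followed by 4.88 at X:1599371-1599739 and 4.63 at X:6743195-6744278. In the band of 4 to 6, neither replicate called 5 of the 93 X regions. At least 1 replicate called 94.6% of the X regions of this band and 92.4% of the 303 on II to V.

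Matched directly, 123 of the 159 X regions of replicate 1 overlapped a replicate 2 region (77.4%, 70.3 to 83.2), and 123 of the 269 of replicate 2 overlapped one of replicate 1 (45.7%, 39.9 to 51.7). The replicate 2 share was 36.4% on II to V, 9.36 points lower than on X (2.62 to 16.1). The interval of the difference lay above 0 against II and III and held 0 against IV (5.02 points, −3.74 to 13.6) and V (7.70 points, −1.45 to 16.6). The replicate 1 share was 73.8% on II to V (difference 3.53 points, −4.64 to 10.9). The input libraries were merged into 1 control for both lists, which the matches share. The centres of matched X regions lay a median of 40 bp apart (quartiles 15.3 and 64.8), against 37 bp on II to V. Replicate 2 gave the higher score in 91 of the 123 X pairs (73.98%, 65.6 to 80.9) and in 202 of 299 pairs on II to V (67.6%, 62.1 to 72.6). The median score difference, replicate 2 minus replicate 1, was 0.884 on X and 0.519 on II to V. Replicate 2 was also the deeper library, and the part of depth in its higher scores was not tested. Across the X pairs, the scores of replicates 1 and 2 moved together, with r = 0.837 (Pearson) and rho = 0.655 (Spearman, n = 123 pairs). Without the 2 highest pairs, r was 0.757 and rho 0.637. The unmatched X regions were weak in both lists, with median scores of 2.25 in replicate 1 and 2.48 in replicate 2, against 3.38 and 4.26 for the matched ones. The strongest without a match were X:5728971-5729728 in replicate 1, with 4.78, and X:16991386-16991734 in replicate 2, with 5.90. Each lies at a combined region named above. Next came X:6207629-6207975 (3.73) and X:6390455-6390719 (3.59) in replicate 1, and X:15125130-15125747 (5.49) and X:11467298-11467672 (4.55) in replicate 2.

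**Figure D4:**
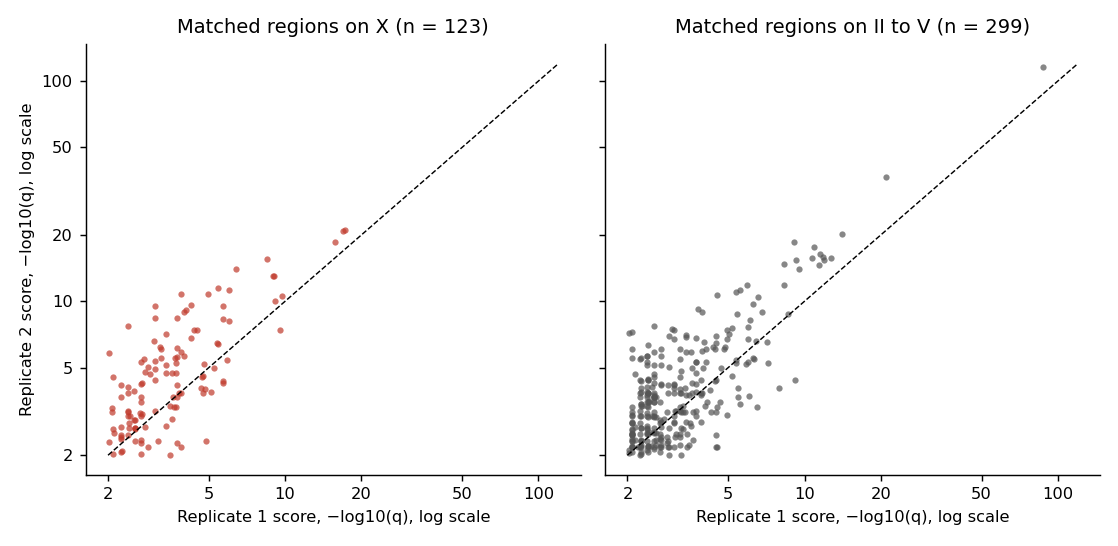
Scores, −log10(q), of regions matched between the replicates, with replicate 1 on the horizontal and replicate 2 on the vertical axis (both log scales), for 123 pairs on X and 299 on II to V; the dashed line marks equal scores. On X 91 pairs lie above the line and the highest pair is at 17.2 and 21.1; the 2 highest pairs of II to V lie beyond the range of X.

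The positions of the X regions were examined last. Whole windows of 1 Mb held 33.8 ± 7.21 regions on X (SD, n = 17 windows), with 17 in the window with fewest and 45 in the one with most. The window with fewest was X:1-1000000 and the one with most X:11000001-12000000, which also held 7 of the 43 regions above a score of 10. The other whole windows held 1 to 4 of these, so each whole window held at least 1 of them. The last, partial window beyond X:17000000 held 19 regions and none above 10. On II to V, windows held from 4 to 56 regions, and 15 of 65 held fewer than the lowest X window. The variance between windows, divided by their mean, was 1.54 on X, against 2.58 on III, 2.95 on IV, 6.35 on V and 7.13 on II. In replicate 1 it was 1.04 on X and 1.58 to 2.72 on the 4 autosomes. In replicate 2 it was 1.31 on X, and 1.25 on IV was lower, while II, III and V had 1.82 to 3.50. Among combined regions of score 6 or more it was 0.973 on X and again lower on IV, at 0.515. By the SD over the mean, X had the lowest value in replicate 2, 0.292, against 0.315 on IV. Without the first window of X, the variance over the mean in the combined list was 1.02. No window was left out on the autosomes. Counts in X windows moved together in the replicates, with r = 0.644 (Pearson) and rho = 0.636 (Spearman) across the 17 windows, for which both lists share the merged input.

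**Figure D5:**
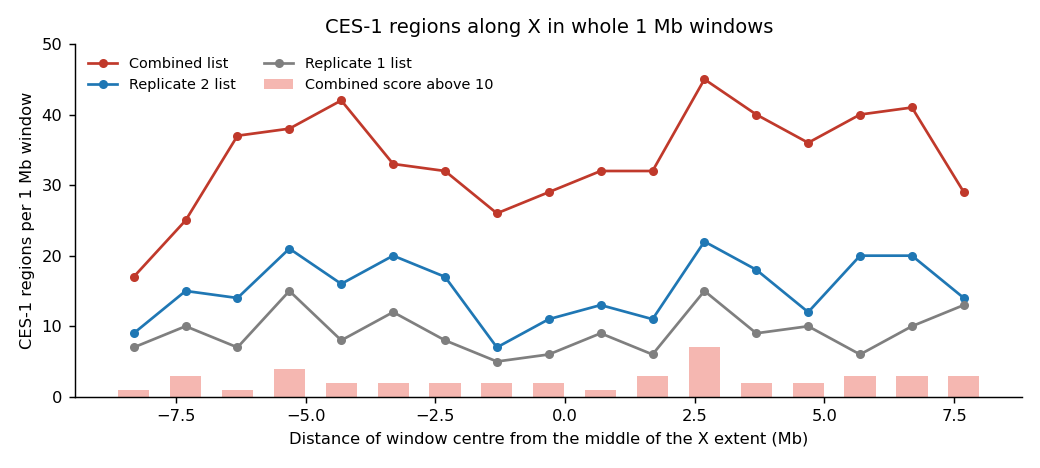
Number of CES-1 regions (vertical axis) in each whole 1 Mb window of X, by the distance of the window's centre from the middle of the X extent (horizontal axis, Mb), in the combined list and in the list of each replicate (lines), with the combined regions above a score of 10 as bars. The combined counts run from 17 at the left end to 45, with a dip to 26 near the middle, and bars are present in all 17 windows.

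Over all X regions, the centre of the chromosome held about the share that its length gives. The middle 50% of the X extent held 309 of 593 regions (52.1%, 48.1 to 56.1), 75 of 159 in replicate 1 (47.2%, 39.6 to 54.9) and 131 of 269 in replicate 2 (48.7%, 42.8 to 54.6). It held 22 of the 43 regions above a score of 10 (51.2%, 36.8 to 65.4). Among the 294 X regions called in neither replicate, however, it held 56.8% (51.1 to 62.3), an interval above 50%. On the autosomes that share ran from 60.5% on III to 67.3% on V. In each of II, III, IV and V the share of the combined list was higher, from 57.2% (52.7 to 61.7) on III to 69.6% (64.98 to 73.9) on V. On III, however, it was 54.2% (44.8 to 63.3) in replicate 1 and 52.9% (46.4 to 59.3) in replicate 2. Above a score of 10 it was 47.6% (28.3 to 67.6) on III. These 3 intervals held 50%, as those of X did in the same sets. Above a score of 10 the intervals of II (38.6 to 81.5) and IV (34.2 to 74.2) also held 50%, while that of V (51.8 to 86.8) did not. On II, IV and V the intervals of both replicate lists lay above 50%. The left end of X was empty in all 3 lists. The first combined region began at base 305118, and the first regions of replicates 1 and 2 at 305142 and 305135 are the same site, while the first combined regions of II to V began at 8726 to 72850. In replicate 1 the first regions of III and V also began late, at 312884 and 294576. Mappability of the first bases of X was not measured.

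In the combined list, X regions were less often close neighbours than those of II to V together. On X 70 of 593 regions had another within 1000 bp (11.8%), against 289 of 1720 on II to V together (16.8%), where the single chromosomes ran from 13.9% on IV to 20.1% on II. The difference was −4.998 points (−7.99 to −1.69). The interval of the X share (9.45 to 14.7) overlapped those of III, IV and V and lay below that of II (16.7 to 24.1). In replicate 1 the shares were 3.14% on X (5 of 159) and 8.64% on II to V (35 of 405), a difference of −5.50 points (−9.11 to −0.848). There the interval of X (1.35 to 7.15) overlapped those of II, IV and V. Close neighbours count each other, so they are not independent and the intervals of these shares and differences are likely too narrow. In replicate 2 they were 6.69% on X and 7.39% on II to V (−0.702 points, −3.83 to 3.27), so the difference did not hold in that list. The median gap between X regions was 15618 bp and the longest 253459 bp, from X:1627304 to X:1880762. X regions with a close neighbour had a median score of 2.83, those whose nearest neighbour lay 1 to 10 kb away 3.23, and those at 10 to 50 kb 3.35. The 27 X regions with no neighbour within 50 kb had the lowest median score, 2.79, so scores did not follow the distance. The share called in at least 1 replicate was 45.7% (34.6 to 57.3) under 1 kb, 50.7% (45.04 to 56.3) at 1 to 10 kb, 52.6% (45.6 to 59.4) at 10 to 50 kb and 44.4% (27.6 to 62.7) beyond. These intervals overlap.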

How the data were processed

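Per the deposited sample table, regions were called on ChIP replicate 1, on ChIP replicate 2 and on the merged alignments of both, each against 1 merged input alignment. Per the file headers, the caller was PeakSeq and coordinates are WormBase WS220; comment lines record that regions were lifted over to that build. Aligner, PeakSeq version and earlier build were not given in the sources used here. The authors deposited a q-value per region, all below 0.01, and counts of total and uniquely mapped 36 bp reads per run, which were summed per library (2 runs per ChIP library, 1 per input).

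From these, with scipy 1.17.1, statsmodels 0.14.6, pandas 2.3.3 and numpy 2.4.6 under Python 3.11.15, widths, scores, overlaps, gaps and window counts were computed. Windows count region centres. Shares carry Wilson intervals, differences of shares Newcombe intervals, density ratios exact conditional intervals, median differences order-statistic intervals, and odds ratios Robins-Breslow-Greenland intervals. Depth limits which weak regions could be called; the lists hold no coverage.

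The members, comparisons and regions named were chosen with earlier results of these data known. Named were the 10 highest-scoring and 5 widest X regions, the 3 strongest in each class of single or no support, the 3 strongest unmatched ones per replicate, and the windows with most and fewest regions. The scripts were tested on simulated data. Alternatives varied the overlap, the width and score limits, the score bands, the list used, the extent, the windows and the autosomes compared. Chromosome I was left out of the comparisons.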

Additional observations from a re-analysis of the deposited data

How the results depend on the processing

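Of 81 alternative values, 66 kept the call. That means the same direction and an interval still on its side of 0 or 1, or still holding it, for differences, density ratios and odds, a value within the reported interval for shares, and one within 1.5 times for the variance-to-mean ratio. For differences and density ratios this rule replaced, after values were seen, one that asked whether the value stayed within the reported interval, which changed the verdict on 3 values (density ratios of 1.19 and 1.50, and the 5.11 points below). The comparisons of strong regions, of scores of 3 or more in each replicate, and of window variance, with all their alternatives, and the central share without the first 1 Mb, were chosen after seeing the data. The share of X regions called in a replicate, 50.4%, was 54.5% for regions of at least 50 bp and 78.2% for combined scores of 3 or more, and ranged from 26.6% to 44.2% with a replicate left out. Its difference from II to V, −1.61 points, changed sign with 50% reciprocal overlap (1.18 points) and without chromosome IV (0.498 points), and ranged from −2.04 to 3.68 points with a replicate left out. All these intervals held 0. The density ratio of X, 1.31, was 1.19 without V and ranged from 1.24 to 1.50 with a replicate left out. The replicate 2 odds, 0.742, had intervals that held 1 with 50% reciprocal overlap (0.966) and without IV (0.816). The excess of X among replicate 1 regions of a score of 3 or more, 12.4 points, was 5.11 points at a score of 4, with an interval that held 0. The central share of X, 52.1%, ranged from 47.2% to 48.7% with a replicate left out. The excess of X regions above a score of 10, 2.66 points, ranged from −0.582 (list of replicate 1) to 2.41 with a replicate left out. With the limit also lowered to a score of 6, it was −1.12 in the list of replicate 1 and 5.12 in that of replicate 2. The density ratio above 10, 2.07, ranged from 1.14 (list of replicate 1) to 2.48 with a replicate left out. A score of 10 is not a like cut across these lists. On II to V it kept 4.59% of the combined list, 2.47% of that of replicate 1 and 2.42% of that of replicate 2. These shares were similar between the replicates. The variance-to-mean ratio of X windows, 1.54, was 1.02 without the first window and ranged from 1.04 to 1.31 with a replicate left out. The cause of these shifts was not tested, except that support by 1 replicate is lower than support by either by construction. The excess width of X stayed between 22 and 42 bp in 8 alternatives. No paired analysis was possible because the lists hold no value for single input libraries and no test across libraries was fitted. The depth of the ChIP libraries, 873921 and 1320404 uniquely mapped reads, limits the calls of weak regions.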

Other observations

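Divided into 3 parts of equal length, left, middle and right, the X extent held 186, 198 and 209 CES-1 regions, or 31.7, 33.7 and 35.6 per Mb. Their median scores were 3.23, 3.07 and 3.27, and regions above a score of 10 numbered 12, 17 and 14. The middle part had the lowest share called in at least 1 replicate, 45.96% (39.2 to 52.9), against 53.8% (46.6 to 60.8) on the left and 51.7% (44.9 to 58.4) on the right. These intervals overlap. Among whole 1 Mb windows, that share was lowest at X:7000001-8000000, with 8 of 26 regions (30.8%, 16.5 to 49.99), and highest at X:1000001-2000000, with 17 of 25 (68%, 48.4 to 82.8). Both windows were chosen after their values were seen.

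All 159 X regions of replicate 1 lay at a region of the combined list, and 265 of the 269 of replicate 2 did. On II to V, 798 of the 825 regions of replicate 2 did, and 6 of the 405 of replicate 1 did not. The 4 exceptions on X were X:309103-309403 (score 2.46), X:325810-325850 (2.62), X:4236246-4236252 (2.24) and X:10664228-10664248 (2.01). The first 2 of these lay near the left end of X, where the combined list begins at base 305118.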
